A study of Homo sapiens with 95 samples.

Results

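The comparison described here set every sample exposed to cigarette smoke condensate (CSC) against every sample exposed to the nicotine-derived nitrosamine NNK, over all 8 genotypic perturbations of the AALE line. These were 23 CSC samples and 24 NNK samples, 47 of the 95 samples of the series, chosen by the chemical named in the sample labels. AALE cells are immortalized human bronchial epithelial cells, and the RNA of every sample was profiled by SFL. SFL is a highly multiplexed RNA sequencing protocol in which barcoded libraries are pooled and sequenced together. CSC was added at 24 μg/ml and NNK at 490 μM, while the other samples received 173 μM benzo[a]pyrene (BaP) or the solvent DMSO. The doses of the mixture and of the pure compound are in different units and were not matched, so each difference is between these exposures as applied. The exposure time is not given in the sources used here.

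In 2 of the 8 lines CDKN2A or FAT1 had been targeted by CRISPR, and their control (GFP) received the Cas9-EGFP plasmid with no guide. The other lines overexpressed FGFR1, NRF2, PIK3CA or NRG1, and their control carried a vector with the HcRed reporter. Each genotype had 3 CSC and 3 NNK samples, except the FGFR1 line, which had 2 CSC samples. The study calls the replicates biological, and the sources used here do not say how they were grown or exposed apart, so p-values measure the spread between these samples. All 8 genotypes derive from 1 immortalized line, which limits what they represent of airway epithelium.

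CSC is the particulate phase of cigarette smoke taken up in solvent. It contains polycyclic aromatic hydrocarbons, which bind the aryl hydrocarbon receptor (AhR); the receptor pairs with ARNT and activates genes of xenobiotic metabolism such as CYP1A1 and CYP1B1. It also contains oxidants and electrophiles, which release the transcription factor NRF2 from KEAP1 and raise enzymes of the antioxidant response such as NQO1. NNK is a single compound of tobacco smoke, which binds nicotinic acetylcholine receptors and is converted by cytochrome P450 enzymes into species that alkylate DNA.

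The promoters of the genes that mark both pathways, and of ABCA1, which had the largest rise, are printed here from RefSeq on build GRCh38.p14, each as the 250 bases before the annotated start, 5′ to 3′ on the gene's own strand. Capitals mark a match to the AhR-ARNT core GCGTG or to the 16-base repeat bound by liver X receptors (LXR), written as AGGTNA and GGTCA with 5 bases between them, searched on both strands. The antioxidant response element core TGACNNNGC was searched too. The regions are chr15:74725529-74725778 for CYP1A1, chr16:69726561-69726810 for NQO1 and chr9:104928156-104928405 for ABCA1, all on the minus strand.
CYP1A1: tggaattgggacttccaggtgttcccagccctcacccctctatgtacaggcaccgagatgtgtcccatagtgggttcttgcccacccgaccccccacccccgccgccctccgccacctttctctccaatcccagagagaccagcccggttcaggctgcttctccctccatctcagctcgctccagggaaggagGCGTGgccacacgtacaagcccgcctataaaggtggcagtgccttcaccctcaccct
NQO1: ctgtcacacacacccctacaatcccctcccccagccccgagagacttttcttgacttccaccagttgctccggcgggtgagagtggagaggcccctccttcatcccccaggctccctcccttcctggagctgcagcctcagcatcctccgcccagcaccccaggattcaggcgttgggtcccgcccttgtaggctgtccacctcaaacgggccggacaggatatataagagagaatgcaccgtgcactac
ABCA1: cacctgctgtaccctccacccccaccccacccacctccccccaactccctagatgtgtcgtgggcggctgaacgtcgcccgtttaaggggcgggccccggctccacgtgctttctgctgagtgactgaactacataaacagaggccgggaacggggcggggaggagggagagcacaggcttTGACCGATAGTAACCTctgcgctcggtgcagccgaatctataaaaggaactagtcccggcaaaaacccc
The CYP1A1 promoter held 1 GCGTG, whose first base lay 57 bases before the start. The MVD promoter held 3 matches to GCGTG and 1 of the 2 HMGCS1 promoters held 2, with 2 of the antioxidant core, and both genes, described later, were lower with CSC. The window of NQO1 held neither the AhR-ARNT core nor the antioxidant core. The ABCA1 promoter held 1 LXR repeat, on the opposite strand, 69 bases before the start, and this motif was chosen after ABCA1 was seen to lead. Of 35116 promoters of the same length, 32.2% held GCGTG, 10.9% held TGACNNNGC and 0.0797% held the LXR repeat. A match of letters describes the window and does not show a bound site.

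The number of counted reads ranged from 485031 to 2116383 in CSC samples and from 338978 to 1625237 in NNK samples, and the mean did not differ detectably (970870 against 853730, two-sided permutation p = 0.312, permuted within genotype). At these depths 3 reads stood for 1.42 to 8.85 CPM (counts scaled to a common library total), and CPM values carry counting error besides the spread between samples. Overexpressed genes had the highest level in their own line, FAT1 was lower in its knockout (6.57 to 6.95 log2 CPM) than in the GFP control (8.53 to 8.67), and CDKN2A in its knockout (5.22 to 6.11) overlapped the lines other than its control. All 14 basal epithelial markers were measured, whereas only 3 of 10 fibroblast, 2 of 8 ciliated cell, 2 of 8 leukocyte and 1 of 6 endothelial markers passed the filter on low counts. The defining marker CD3E had no read in any of the 47 samples, PTPRC had 0 reads over the CSC and 4 over the NNK samples, and CDH5 and DNAI2 had 0. Other members of these lists did have reads. COL1A1 had 684 over CSC and 574 over NNK samples, CCDC39 135 and 99, CD14 78 and 46, and KDR 28 and 25. CD68, which macrophages share with other cells, was the 1 called gene of the non-epithelial markers (0.80 ± 0.13, 526 reads over CSC and 275 over NNK samples). In bulk samples fewer cells of a type and less RNA per cell cannot be told apart.

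Several libraries stood apart. The 3 CSC samples of the NRF2 line (6.30 to 7.25 log2 CPM) and CSC replicate 1 of the FAT1 line (6.08) had more NRG1 reads than the 37 other CSC and NNK libraries outside the NRG1 line (2.46 to 5.44). The NRG1 line itself was at 12.19 to 12.64. RNA of these cells and reads carried over between pooled barcodes cannot be told apart here. Among the DMSO and BaP libraries, which enter only the values against DMSO, 4 outside the NRG1 line were also above the others for this gene (6.57 to 8.55), namely DMSO replicates 2 and 3 and BaP replicate 2 of the FGFR1 line and DMSO replicate 3 of the CDKN2A line. NNK replicate 3 of the GFP control was the smallest library and lay at 38.4 on the second principal component, against -10.2 to 6.48 for all others. The main counts are therefore also given without the 5 CSC and NNK libraries. Without these and the 4 others, the 45 values against DMSO computed for genes and lists named here all kept their sign and side of the threshold where tested, and moved by at most 0.0391 (log2).

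Of 14339 genes with a mean count above 1, 3094 (21.6%) differed between CSC and NNK at an adjusted p under 0.05 (limma-voom with genotype as covariate, Benjamini-Hochberg). With CSC 1574 genes (11.0%) were higher and 1520 (10.6%) were lower, and the median log2 fold change over all genes was -0.0018. Most differences were small, with a median absolute log2 fold change of 0.27 among the called genes. Past a 1.5-fold change there were 499 genes (3.48%), of which 354 (2.47%) were higher and 145 (1.01%) were lower, and 92 genes were more than 2-fold higher against 16 more than 2-fold lower. Fewer genes passed 1.5-fold once small noncoding RNA genes were left out (365) or 10 or more reads on average were required (184). How these split by direction is not given here, so the excess of large rises may rest in part on short RNAs and genes with few reads. Without the 5 libraries 2686 genes were called, and 2492 of them were among the 3094. These counts follow the depth: with every library thinned to the smallest, 1510 genes were called. In 6 genes (0.0418%) all 23 CSC samples lay above all 24 NNK samples: CYP1A1, TIPARP, ABCA1, ABCG1, SREBF1 and RMRP. In no gene (0.0%) did all CSC samples lie below all NNK samples.

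**Figure D1:**
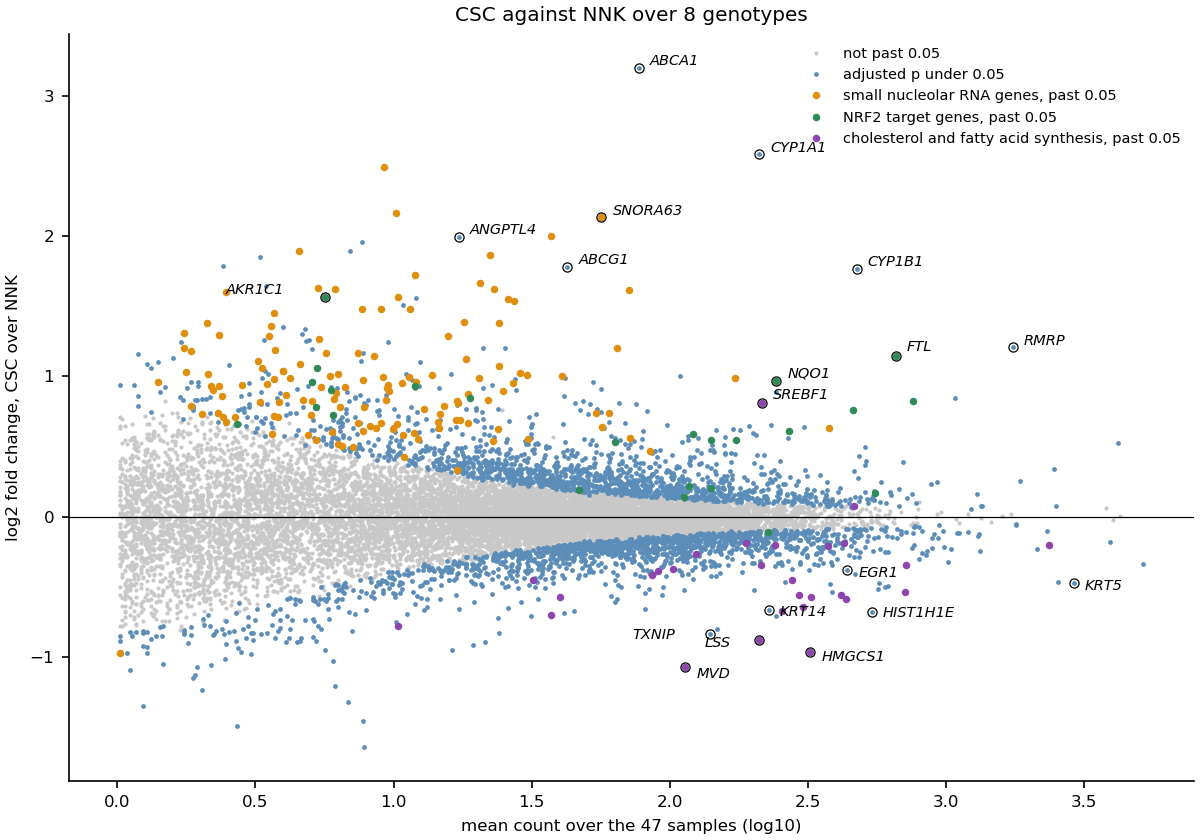
Each point is 1 of 14339 genes, with the log10 of its mean count over 47 samples on the x axis and the log2 fold change of CSC over NNK on the y axis. Genes past the threshold in each direction are coloured, and the largest rises reach further from 0 than the largest falls.

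The target genes of the aryl hydrocarbon receptor were higher with CSC than with NNK, with a median log2 fold change of 0.89 over 11 measured targets. Of these 8 were higher and none was lower, set beside 11.0% and 10.6% of all genes, and without the 5 libraries the counts were again 8 and none. In edgeR and in DESeq2 7 were higher and none was lower. NQO1, described below with the NRF2 targets, was 1 of the 8 higher in limma-voom. CYP1A1, which hydroxylates polycyclic hydrocarbons (chr15:75011883-75017877 on GRCh37, minus strand), lay between 6.98 and 9.63 log2 CPM in CSC samples (median 8.61) and between 5.12 and 6.83 in NNK samples (median 5.77). The groups did not overlap. Its mean was 8.41 ± 0.79 (SD, n = 23) with CSC and 5.90 ± 0.51 (SD, n = 24) with NNK, a difference of 2.51 (two-sided permutation p = 1e-05 within genotype, the smallest that 100000 permutations can give). In the fit across all genes the log2 fold change was 2.58 ± 0.10 (SE), or 5.98-fold (limma-voom adjusted p = 2.5e-40). The DMSO samples lay from 1.10 to 4.37 (median 3.28) and the BaP samples from 6.74 to 9.69 (median 8.50), so every NNK sample lay above every DMSO sample and below every CSC sample, and the highest NNK sample (6.83) overlapped the lowest BaP sample.

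CYP1B1, a related hydroxylase (chr2:38294116-38337044 on GRCh37, minus strand), ranged from 8.12 to 10.20 log2 CPM with CSC (median 9.68) and from 6.94 to 8.77 with NNK (median 7.54). The ranges overlapped over all samples, but within each of the 8 genotypes every CSC sample lay above every NNK sample, as in 51 genes (0.356%). It was 3.40-fold higher with CSC (log2 fold change 1.77 ± 0.07, limma-voom adjusted p = 1.63e-42). TIPARP, an ADP-ribosyltransferase that feeds back on the receptor, lay between 8.20 and 8.996 log2 CPM with CSC and between 6.65 and 8.04 with NNK (log2 fold change 0.89 ± 0.05). The receptor's repressor AHRR (0.97 ± 0.16), the aldehyde dehydrogenase ALDH3A1 (0.91 ± 0.11) and the amino acid transporter SLC7A5 (0.34 ± 0.02) also rose. NFE2L2, LRAT and FAM102B did not pass the test, at 0.04, 0.10 and -0.17. CYP1A2 was below the filter. Among 8 genes of the receptor and its chaperones 2 were higher and 1 was lower. The former were AHRR, already counted as a target, and HSP90AA1 (0.08 ± 0.02), and the latter was HSP90AB1 (-0.10 ± 0.03).

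**Figure D2:**
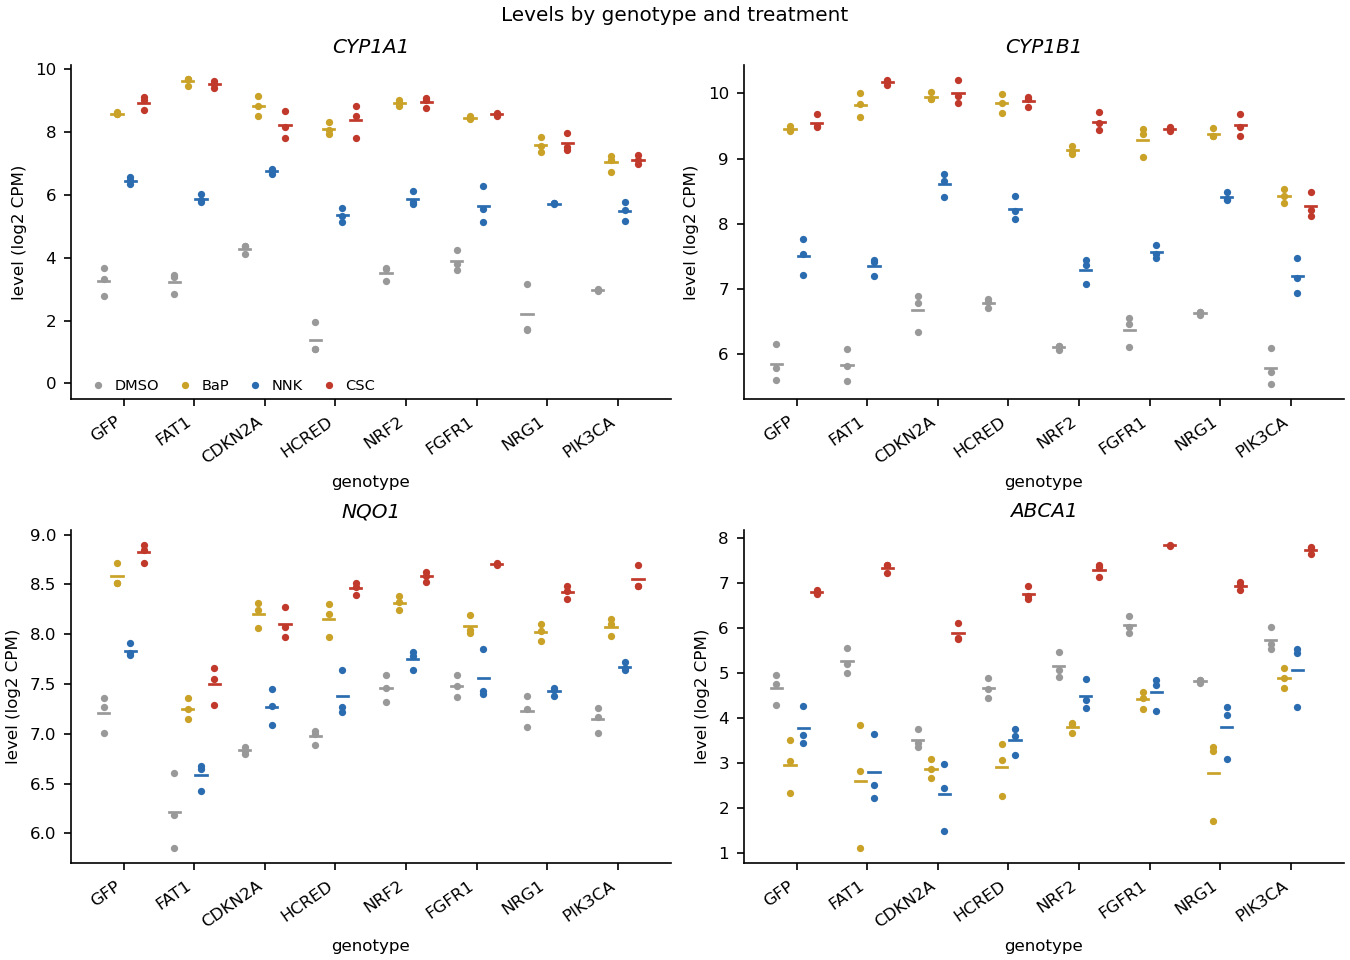
Levels of CYP1A1, CYP1B1, NQO1 and ABCA1 in log2 CPM on the y axis, with 1 point per sample, grouped by genotype on the x axis and coloured by treatment, and a bar for each mean. For CYP1A1 and CYP1B1 the NNK samples lie between DMSO and CSC, whereas for ABCA1 they lie below DMSO in the mean.

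The targets of NRF2 were mostly higher with CSC than with NNK. Of 27 measured, 23 rose and 1 fell, beside 11.0% and 10.6% of all genes, with a median log2 fold change of 0.61. Without the 5 libraries 20 rose and none fell. NQO1, a quinone reductase (chr16:69740899-69760571 on GRCh37, minus strand), lay between 7.29 and 8.90 log2 CPM with CSC (median 8.48) and between 6.43 and 7.91 with NNK (median 7.45). The ranges overlapped over all samples but not within any of the 8 genotypes. The difference of means was 0.95 (8.38 ± 0.42 against 7.43 ± 0.40, SD, n = 23 and n = 24, two-sided permutation p = 1e-05), and the fitted change was 1.95-fold (0.97 ± 0.04, limma-voom adjusted p = 5.55e-41). It ranged from 0.83 in the NRF2 line to 1.10 in the HcRed control, and a difference between genotypes was not detected (moderated F test, limma-voom adjusted p = 0.889).

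Iron storage and thiol enzymes moved with it. FTL, the ferritin light chain, had the smallest p of these genes, at 8.87 to 11.00 log2 CPM with CSC (median 9.57) and 7.81 to 9.93 with NNK (median 8.65). It was 2.21-fold higher (1.14 ± 0.03, limma-voom adjusted p = 6.7e-54), and every CSC sample lay above every NNK sample within each genotype. The heavy chain FTH1 rose by 0.83 ± 0.03; both ferritin genes have processed copies in the genome, so their counts depend on how shared reads were assigned. TXNRD1, which reduces thioredoxin, lay at 8.52 to 9.78 with CSC and 7.93 to 8.97 with NNK (0.76 ± 0.03), and its substrate TXN rose by 0.62 ± 0.05. Both subunits of the enzyme that makes glutathione's precursor were higher, GCLM by 0.59 ± 0.05 and GCLC by 0.55 ± 0.04, as were the cystine carrier SLC7A11 (0.61 ± 0.05) and sulfiredoxin SRXN1 (0.55 ± 0.04). AKR1C1, a ketone reductase, was 2.96-fold higher on a mean of 5.64 reads, and its reads may be shared with the near-identical AKR1C2 and AKR1C3. PGD of the pentose phosphate pathway was the 1 target that fell (-0.11 ± 0.04).

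Relative to DMSO the same targets stood differently for each chemical. In a fit of all 95 samples, in which the contrasts share the DMSO samples, NQO1 had a log2 fold change of 1.37 with CSC, 0.39 with NNK and 1.05 with BaP, and TXNRD1 had 0.81, 0.05 and 0.72. The median over the 27 targets was 0.81 with CSC, 0.23 with NNK and 0.72 with BaP, and after correction for GC content and length it was 0.74, 0.16 and 0.63. Of 9 regulators of the pathway 3 were higher with CSC than with NNK and none was lower, beside 11.0% and 10.6% of all genes. The 3 were SQSTM1, which sequesters KEAP1 (0.64 ± 0.04), and the small MAF partners MAFG (0.56 ± 0.07) and MAFF (0.40 ± 0.12). The NRF2 gene itself, NFE2L2, did not pass the test. In the wider glutathione and thioredoxin system 12 of 26 genes rose and 1 fell (12 and 2 without the 5 libraries), and the faller was TXNIP, an inhibitor of thioredoxin. It lay at 5.54 to 7.42 log2 CPM with CSC and 6.90 to 8.38 with NNK (-0.83 ± 0.06, limma-voom adjusted p = 9.04e-24), with -0.93 for CSC and -0.07 for NNK against DMSO. The metal-binding MT2A rose by 0.85 ± 0.04, and 3 of 6 metallothioneins rose in all, a family of near-identical copies.

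The largest rise of the comparison was that of ABCA1, which exports cholesterol to lipoproteins (chr9:107543287-107690436 on GRCh37, minus strand). It lay between 5.77 and 7.86 log2 CPM with CSC (median 7.02) and between 1.48 and 5.54 with NNK (median 3.91). No CSC sample overlapped an NNK sample, and the change was 9.18-fold (3.20 ± 0.12, limma-voom adjusted p = 2.68e-42). The DMSO samples ranged from 3.36 to 6.28 and overlapped both groups, with a median between them (4.94), and the BaP samples at 1.10 to 5.11 (median 3.39). The fitted changes against DMSO were 2.10 for CSC, -1.11 for NNK and -1.68 for BaP, so the distance between CSC and NNK was made up of both a rise and a fall.

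ABCG1, a partner in cholesterol export (chr21:43619799-43717354 on GRCh37, plus strand), ranged from 5.35 to 6.78 log2 CPM with CSC and from 3.28 to 5.22 with NNK. It was 3.43-fold higher (1.78 ± 0.10, limma-voom adjusted p = 4.81e-31), with 1.64 for CSC and -0.12 for NNK against DMSO. SREBF1, which encodes a regulator of lipid synthesis, lay at 7.85 to 8.67 with CSC and 7.04 to 7.80 with NNK, again without overlap (0.81 ± 0.04). All of these genes are known LXR targets, as is MYLIP, a ubiquitin ligase (0.64 ± 0.12). A list of 16 LXR targets was written after ABCA1 and ABCG1 were seen to lead, so it is not independent evidence. Of 12 measured, 6 rose and 1 fell, beside 11.0% and 10.6% of all genes, with a median of 0.26. The counts without the 5 libraries were 6 and 1. The faller was SCD, a fatty acid desaturase (-0.20 ± 0.02). ANGPTL4, a lipase inhibitor, was 3.98-fold higher with CSC and its groups overlapped (1.66 to 6.62 against 1.10 to 4.51 log2 CPM).

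The enzymes that make cholesterol were lower with CSC than with NNK. Of 30 genes of cholesterol and fatty acid synthesis 26 fell and 2 rose, beside 10.6% and 11.0% of all genes, and the median was -0.43. Without the 5 libraries 26 fell and 1 rose. In 21 of the 30 the mean was lower in all 8 genotypes, which held for 573 of all genes (4.0%), whereas 846 (5.9%) were higher in all 8. MVD, which makes isopentenyl diphosphate (chr16:88718343-88729569 on GRCh37, minus strand), lay between 4.97 and 7.08 log2 CPM with CSC (median 6.41) and between 6.41 and 7.99 with NNK (median 7.53). Its groups overlapped over all samples and were apart within each genotype, and the log2 fold change was -1.07 ± 0.05 (limma-voom adjusted p = 1.18e-32).

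HMGCS1, which condenses acetyl units into HMG-CoA (chr5:43287572-43313614 on GRCh37, minus strand), lay at 7.22 to 8.47 log2 CPM with CSC (median 7.86) and at 7.96 to 9.69 with NNK (median 8.73). Its change was -0.96 ± 0.05 (limma-voom adjusted p = 1.34e-33). LSS, which closes the sterol rings, fell by 0.88 on the log2 scale (SE 0.04), and ACAT2, a thiolase that supplies the pathway and stands outside the list, by 0.79 (SE 0.05). CYP51A1 (-0.67), SQLE (-0.64), MVK (-0.57) and FDFT1 (-0.55) of the same pathway also fell, and these 4 were named after their values were seen. The master regulator SREBF2 (-0.20 ± 0.04) fell less. The genes that rose were SREBF1 and ACACA (0.08 ± 0.03), while FASN (0.02) and ELOVL6 (-0.03) did not pass the test.

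The position of DMSO differed between these genes. MVD had a log2 fold change against DMSO of 0.31 with CSC, 1.36 with NNK and 0.53 with BaP, and LSS had 0.19, 1.05 and 0.40. HMGCS1 had -0.42, 0.55 and -0.05. Over the 30 genes the median was 0.02 with CSC, 0.44 with NNK and -0.01 with BaP. After correction for GC content and length the medians were -0.07, 0.37 and 0.00. The NNK samples thus had the highest levels in the median, whereas CSC and BaP samples were near the solvent, and the difference between NNK and BaP was not tested.

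**Figure D3:**
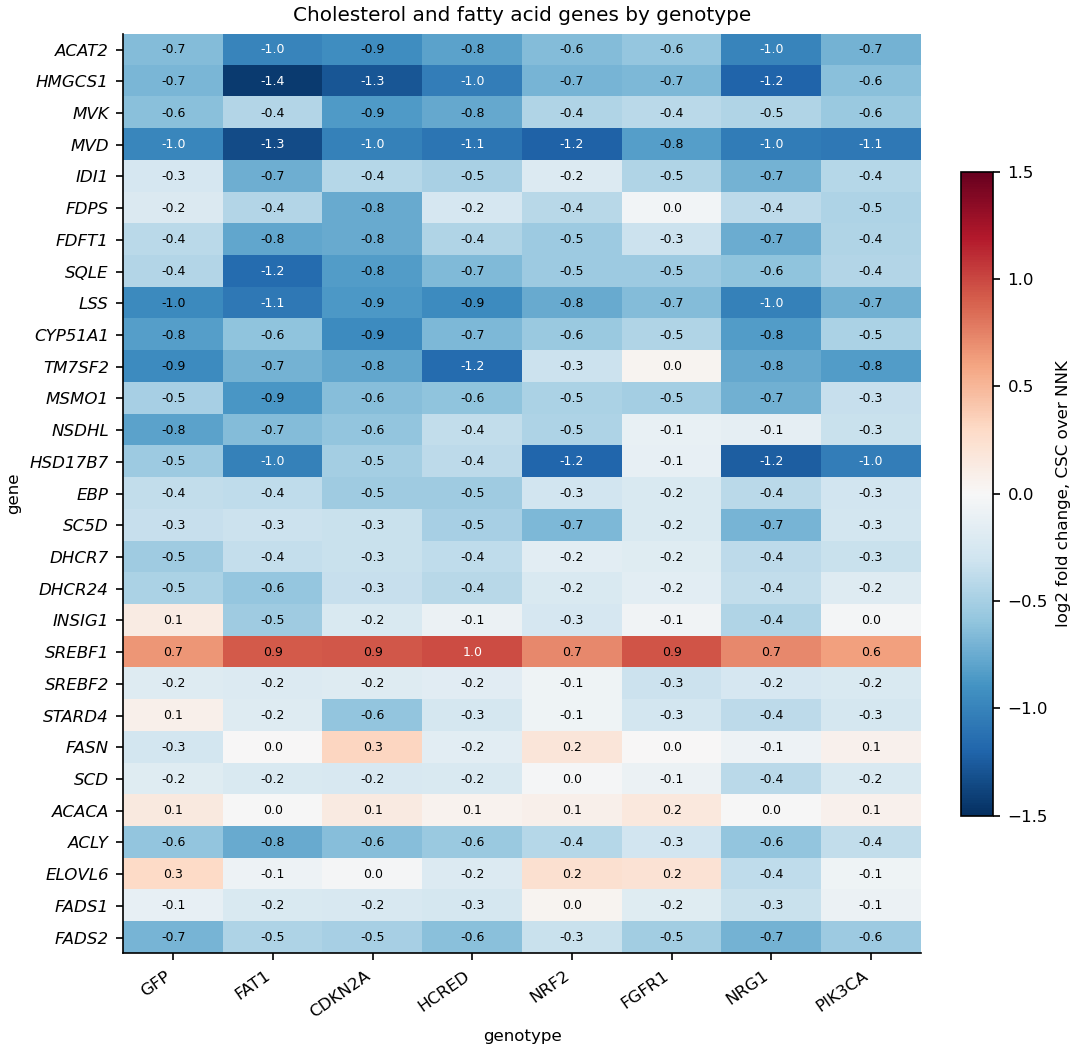
Heat map of the log2 fold change of CSC over NNK, with 1 row for ACAT2 and for each of 28 of the 30 genes of cholesterol and fatty acid synthesis and 1 column per genotype. Nearly all cells are on the lower side, with MVD and HMGCS1 among the lowest and SREBF1 higher in all 8 genotypes.

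Small nucleolar RNAs, which guide the modification of ribosomal RNA, had more reads with CSC than with NNK. A list of them was written after some were seen among the leading rises. Of 222 measured, from 552 listed in the files, 133 were higher and 1 was lower, beside 11.0% and 10.6% of all genes. The lower one was SNORD159, on a mean of 1.02 reads, and the median was 0.67. Without the 5 libraries 119 were higher and 1 was lower. SNORA63 lay at 5.49 to 7.74 log2 CPM with CSC and 2.89 to 5.67 with NNK, a 4.39-fold difference (2.13 ± 0.12, limma-voom adjusted p = 1.69e-30). SNORD68 lay at 5.42 to 6.63 with CSC and 3.02 to 5.51 with NNK (1.999 ± 0.12), and both sets of samples were apart within each genotype. The guides of methylation (SNORD, 72 of 119 higher), of pseudouridylation (SNORA, 53 of 83) and of the Cajal body (SCARNA, 8 of 20) all contributed.

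The host genes in whose introns these RNAs lie were divided. Of 128 measured small nucleolar RNAs inside a measured gene, 80 were higher and 0 were lower, with a median of 0.71. Of the 91 host genes 20 were higher and 13 lower, beside 11.0% and 10.6% of all genes, with a median of 0.02. SNORD68 lies in RPL13, whose change of 0.09 did not pass the test (adjusted p = 0.0545, limma-voom), and SNORD32A rose by 1.62 inside RPL13A, which fell by 0.35. Each symbol was placed at 1 annotated copy, the longest, so an RNA with several copies may have been given the host of another copy. Whether the counting used strand is not stated, so reads of an intronic RNA and of its host's unspliced transcript cannot be told apart by strand.

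These results depend on the correction for GC content and gene length, which removes both together. Its length trend was fitted on genes that include some small nucleolar RNAs, so it can remove a shift of that class itself. After each library was corrected for the GC content and length of genes, 24 of 177 small nucleolar RNAs with known GC content were higher and 19 were lower, with a median of -0.12, and those RNAs are among the shortest genes fitted. SNORA63 then had 1.39 and SNORD68 had 1.11, both past the threshold. Small noncoding RNAs made up 0.379% to 0.5345% of counts in CSC samples and 0.2182% to 0.3725% in NNK samples, without overlap, and over all genes the log2 fold change had a Spearman correlation of -0.11 with exon length. Their part in the result was not tested. RMRP, the RNA of a ribonuclease that processes ribosomal RNA, lay at 11.03 to 11.81 log2 CPM with CSC and 9.46 to 10.82 with NNK, without overlap (1.21 ± 0.05, and 0.71 after that correction). Against DMSO it had 1.40 with CSC, 0.17 with NNK and 0.72 with BaP. RPPH1, the RNA of RNase P, rose by 0.53 ± 0.04.

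Keratins and other markers of the basal airway cell were slightly lower with CSC. Of 14 basal epithelial markers 10 were lower and 1 was higher (9 and 1 without the 5 libraries), beside 10.6% and 11.0% of all genes. The median was -0.22, and the rise was that of the integrin ITGA6 (0.13 ± 0.03). KRT5, the keratin that defines basal cells, lay between 10.65 and 11.88 log2 CPM with CSC (median 11.41) and between 11.49 and 12.59 with NNK (median 11.83). The groups overlapped in part and were apart within each genotype (-0.47 ± 0.02, limma-voom adjusted p = 1.54e-32). KRT14 fell by 0.66 (SE 0.06), KRT15 by 0.91 (SE 0.14) and KRT19 by 0.51 (SE 0.03), all on the log2 scale, and KRT18 of simple epithelium rose by 0.26 ± 0.05. The fall of KRT15 was uneven between lines. Its mean was 4.26 log2 CPM with CSC against 6.10 with NNK in FGFR1, and 4.58 against 5.95 in NRF2. In the GFP control it was 4.05 against 4.15, in FAT1 4.13 against 4.18, in PIK3CA 3.35 against 3.39 and in the HcRed control 4.31 against 4.25. The summed level of the 14 markers was 5891 to 10279 CPM with CSC and 6937 to 14059 with NNK, so the ranges overlapped widely.

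Genes of cell division were also lower with CSC, by small amounts. Over all genes 10.6% were lower and 11.0% were higher. Of 25 genes of mitosis and the spindle 18 were lower and none was higher (median -0.18), and of 29 replication genes 13 were lower and none was higher (median -0.12). In edgeR and DESeq2 19 and 19 of the former and 14 and 15 of the latter were lower, again with none higher, and without the 5 libraries 17 and 14. With every library thinned to the smallest, 13 of the former and 4 of the latter were lower. The kinetochore gene CENPF fell by 0.27 (SE 0.03), the spindle factor TPX2 by 0.28 (SE 0.03) and the replicative helicase subunit MCM2 by 0.27 (SE 0.04) on the log2 scale. Against DMSO CENPF had -0.77 with CSC and -0.49 with NNK. Of 20 clustered histone genes 7 were higher and 5 were lower, with a median of 0.09. The linker histones HIST1H1E (-0.68 ± 0.03), HIST1H1B (-0.53 ± 0.04) and HIST1H1C (-0.49 ± 0.04) were lower, whereas the core histone HIST2H2BE was higher (0.42 ± 0.05). Histone genes are near-identical copies, and reads shared between them are uncertain.

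Ligands of the EGF receptor and genes of the immediate early response were divided. Their counts stand beside 11.0% of all genes higher and 10.6% lower. Of 9 ligands 5 rose, among them EPGN (1.25 ± 0.16), AREG (1.02 ± 0.15) and HBEGF (0.69 ± 0.14), on mean counts of 9.55 to 13.1. The ligand called lower was NRG1, the transgene of 1 line (-0.25 ± 0.05), and its sign was opposite in edgeR (0.21, not called) and without the NRG1 line (0.97). The feedback inhibitors of the MAP kinase pathway SPRY4 (1.20 ± 0.11) and DUSP6 (0.99 ± 0.10) rose, and SPRY4 was apart in each genotype. EGR1, an early transcription factor, lay at 7.32 to 9.16 log2 CPM with CSC and 7.50 to 9.68 with NNK (-0.38 ± 0.04). Both chemicals, and BaP too, were well above DMSO for EGR1 (1.97 with CSC, 2.34 with NNK, 1.99 with BaP) and for FOS (2.10, 2.34 and 2.01). FOS was lower with CSC than with NNK by 0.26 (SE 0.07). In all, 12 of 20 genes of the immediate early response rose and 3 fell. Without the 5 libraries 5 ligands rose and 1 fell, and 11 early genes rose and 2 fell.

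Secreted factors of inflammation and wound response rose in part. IL1A, an alarm cytokine, lay at 4.86 to 6.97 log2 CPM with CSC and 4.18 to 6.38 with NNK and was apart within each genotype (0.77 ± 0.07). SERPINB2, an inhibitor of plasminogen activators, was 2.94-fold higher (1.56 ± 0.18), and the growth factor of blood vessels VEGFA rose by 0.76 ± 0.06. CSF3, which drives neutrophil production, was 3.61-fold higher on a mean of 3.28 reads. Of 16 measured cytokines and chemokines 5 rose and none fell, beside 11.0% and 10.6% of all genes. The counts were the same in edgeR and DESeq2, and 4 rose without the 5 libraries. Of 21 interferon-stimulated genes 2 fell and 0 rose in limma-voom, edgeR and DESeq2, with 4 falls and 0 rises at an unadjusted p under 0.05. The 9.52% called lower is near the 10.6% of all genes, and the 2 were IFIT2 (-0.89 ± 0.12) and IFIT3 (-0.46 ± 0.12).

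Genes tied to NNK or to DNA damage are set beside the 21.6% of all genes that were called. Of 6 measured genes of the receptors that bind NNK and their partners 0 passed in limma-voom, 0 at an unadjusted p under 0.05 and 0 in edgeR or DESeq2, with a median of 0.19. Of 7 measured enzymes that activate or detoxify NNK 3 (42.9%) were higher with CSC (2 without the 5 libraries). AKR1C1, counted above as an NRF2 target, was 1 of the 3. CYP2A13, the main enzyme that activates NNK in the airway, was below the filter. MGMT, which removes alkyl groups from guanine, had -0.28 ± 0.12 (limma-voom adjusted p = 0.0995). Of 29 genes of adduct and alkylation repair 2 were higher and 6 lower (27.6% in all), with a median of -0.04. Of 24 p53 targets 2 were higher and 4 lower (25.0% in all), with a median of 0.00, and both shares are near that of all genes. CDKN1A, the p53 target that arrests the cell cycle, was higher by 0.29 ± 0.04. Against DMSO it had 0.99 for CSC, 0.68 for NNK and 0.97 for BaP.

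**Figure D4:**
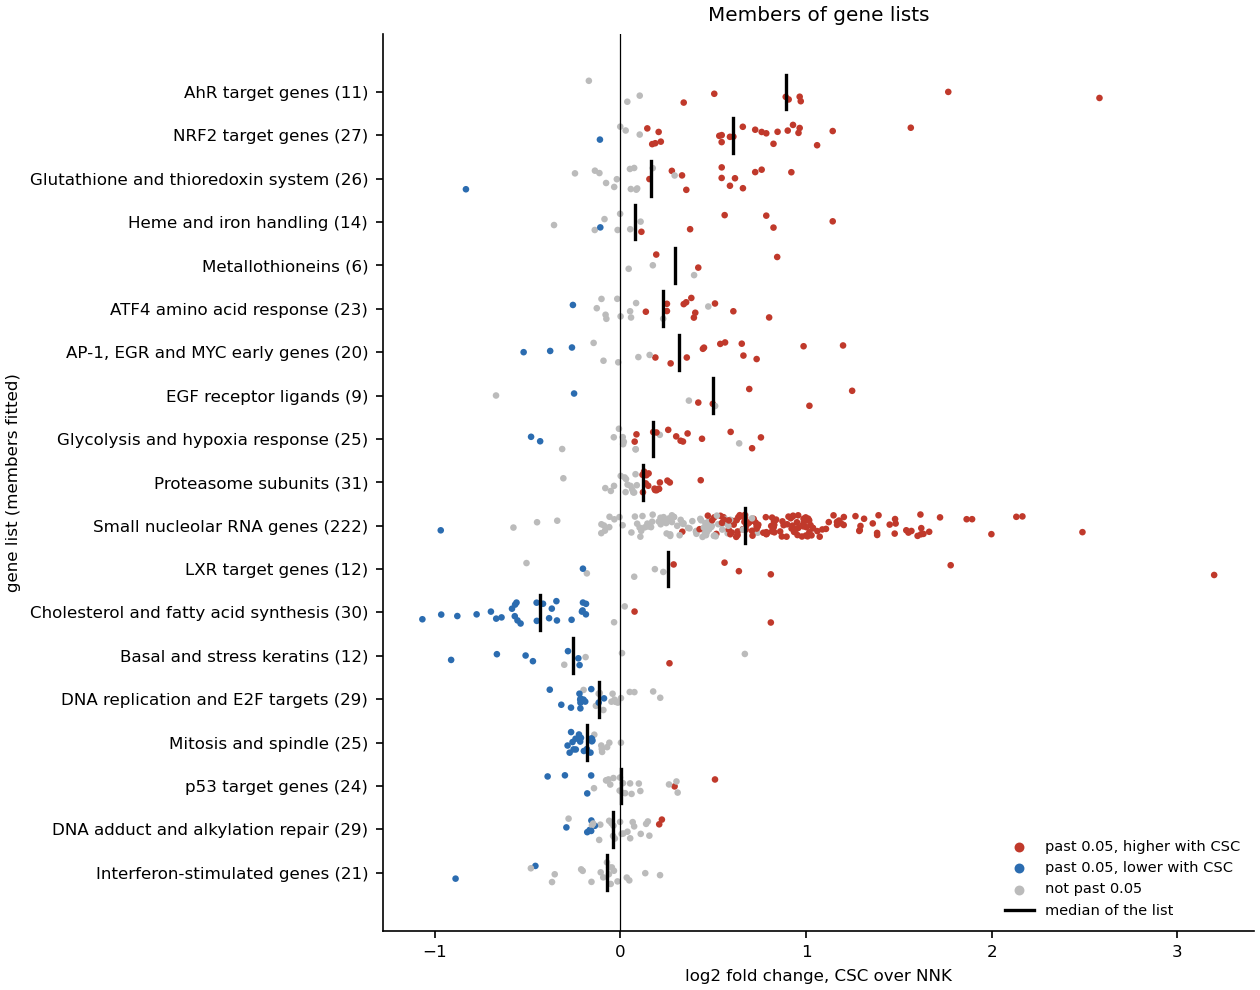
Log2 fold change of CSC over NNK on the x axis for the members of 19 gene lists, 1 point per gene coloured by its call, with a black line at the median of each list. The lists of AhR targets, small nucleolar RNAs and NRF2 targets lie to the right of 0 and that of cholesterol synthesis to the left.

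Whether the difference between CSC and NNK depended on the genotype was asked with the genotype by chemical terms. For 106 genes (0.739%) it varied between the 8 genotypes (moderated F test with 7 terms, limma-voom, adjusted p under 0.05), and 73 of them were also called over all genotypes. The difference had both signs in 69 of these genes and 1 sign in 37. Within single genotypes the number of genes called ranged from 125 (0.872%) in the GFP control to 477 (3.33%) in the NRG1 line. It was 427 (2.98%) in PIK3CA, 398 (2.78%) in CDKN2A, 311 (2.17%) in NRF2, 278 (1.94%) in FAT1, 240 (1.67%) in the HcRed control and 231 (1.61%) in FGFR1, which had 2 CSC samples. The count for the GFP control was 210 when that line was fitted alone. Leaving out 1 library lowered every count by over 1.5 times at its lowest, to 65 in the GFP control, 126 in the HcRed control and 274 in PIK3CA without NNK replicate 1, to 180 in FAT1 and 219 in CDKN2A without NNK replicate 2, and to 205 in NRF2, 301 in NRG1 and 83 in FGFR1 without CSC replicate 3. Such counts depend on the depth and spread of each line and were not compared by a test.

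The changes of CYP1B1 and CYP1A1 varied in size and not in direction. CYP1B1 was higher with CSC by 2.86 in the FAT1 line, 2.27 in NRF2, 2.06 in the GFP control, 1.87 in FGFR1, 1.66 in the HcRed control, 1.51 in CDKN2A, 1.11 in NRG1 and 1.07 in PIK3CA on the log2 scale (adjusted p of the moderated F test in limma-voom, 4.45e-19). CYP1A1 ranged from 1.61 ± 0.16 in the CDKN2A line to 3.71 ± 0.20 in the FAT1 line (1.94e-09 by the same test). TIPARP (0.48 in PIK3CA to 1.41 in FAT1) and SLC7A5 (0.19 in PIK3CA to 0.71 in FAT1) had their extremes in the same lines as CYP1B1. ABCA1 had the same extremes too, at 2.52 and 4.84. HMGCS1 was lowest in FAT1 (-1.44) and least changed in PIK3CA (-0.63).

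KRT17, KRT6A and LAMA3 had both signs across genotypes, whereas KRT5 was lower with CSC in all 8. KRT14 had 0.01 in PIK3CA and was lowest in FAT1 (-1.18), and KRT17 went from -0.65 in FGFR1 to 0.22 in PIK3CA. KRT6A, a stress keratin that was not called over all genotypes (0.01 ± 0.03), went from -0.34 in CDKN2A to 0.37 in PIK3CA. The laminin chain LAMA3 went from -0.09 in CDKN2A to 0.67 in PIK3CA. The PIK3CA line held the highest value of 32 of the 106 genes, more than any other genotype, and the CDKN2A line the lowest value of 22. SLC7A11 was highest in the NRF2 line, at 1.37 against 0.36 in the GFP control. NRG1 itself reached 3.36 ± 0.47 in the NRF2 line, whose CSC libraries stood apart for this gene, with the source of the reads unknown; without the 5 libraries, which leaves out the NRF2 line, its test had an adjusted p of 0.0753 (limma-voom).

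**Figure D5:**
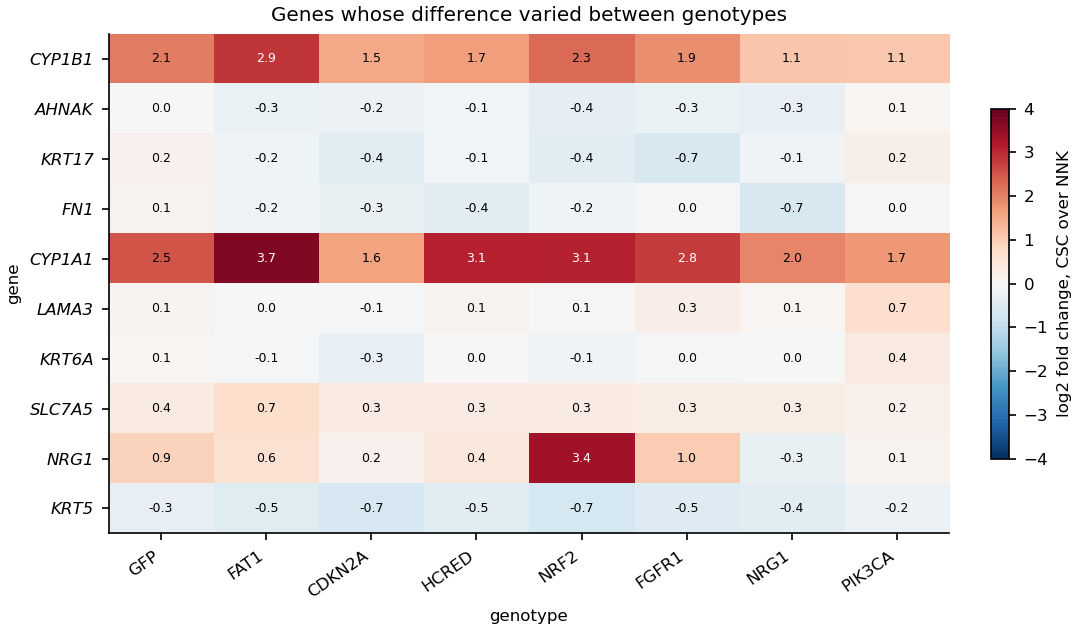
Heat map of the log2 fold change of CSC over NNK in each of the 8 genotypes (columns) for the 10 genes with the smallest p of the genotype by chemical test and a mean count of at least 10 (rows). CYP1A1 and CYP1B1 are higher with CSC throughout and most so in FAT1, whereas KRT6A, KRT17 and AHNAK are above 0 in PIK3CA and below it in several other lines.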

How the data were processed

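SFL libraries of 95 AALE samples were sequenced as single-end reads of 75 bases. The authors trimmed adapters with cutadapt 1.12, checked quality with FastQC 0.11.5, aligned reads to hg19 with STAR 2.5.2b, counted them in RefSeq genes with featureCounts and deposited raw counts per gene, the unit used here. Whether strand was used in counting is not stated. Samples were grouped by the labels. The members, gene lists and tests were chosen with earlier results of these data known, and 5 of the 47 lists were written after leading genes were seen. Some genes stand in more than 1 list, so the counts of different lists are not independent.

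The 47 CSC and NNK samples were compared in R 4.3.3 with limma 3.58.1 (voom, TMM factors, genotype as covariate, genes with a mean count above 1, Benjamini-Hochberg adjustment, threshold 0.05). Differences between genotypes were tested with a moderated F test of 7 genotype by chemical terms, and each genotype was read from a model of 16 groups. Contrasts against DMSO came from a fit of all 95 samples. Levels are log2 CPM with TMM factors over 95 samples and a prior count of 2, on which a gene with no read is at 1.10. Levels are compared within a gene only. Single genes were tested by 100000 permutations within genotype.

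Genes were named by a rule: CYP1A1 and NQO1, the 12 largest rises and falls with 1 sign in 8 genotypes and 10 or more reads on average, up to 4 members per list and direction, the perturbed genes, and the 10 genes with the smallest p of the genotype by chemical test. Some others stand outside this rule and outside the 206 named genes followed over the alternatives, such as TIPARP, TXN, GCLM, GCLC, SRXN1 and SREBF2. Of these others CYP51A1, SQLE, MVK and FDFT1 are named as chosen after their values were seen. Gene positions and lengths on GRCh37 came from an annotation that matched 24309 of 27978 symbols.

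Alternatives were edgeR 4.0.16 (quasi-likelihood), DESeq2 1.42.0, other filters and size factors, GC and length correction (loess, span 0.3), the replicate number as a block, sample weights, thinning to the smallest library, and leaving out each library or genotype. Scripts were tested on simulated data with known changes. Deviations of same-numbered samples correlated between -0.04 and 0.07 over 23 pairs, and whether replicate numbers pair samples was not tested. All 46 pairs of replicates checked differed by more than counting noise (chi-square per degree of freedom 1.14 to 2.28). Results of single genes that are withheld are not reported here, and 2 such genes are left out of the heat map of lipid synthesis.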

Additional observations from a re-analysis of the deposited data

Results flagged for a closer look

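The difference between CSC and NNK varied between the 8 genotypes for 106 genes, by a test of that difference itself (moderated F test of the genotype by chemical terms, limma-voom, adjusted p under 0.05). The 10 genes with the smallest p and a mean count of at least 10 are given here with the extremes of their log2 fold change. CYP1B1 (adjusted p = 4.45e-19) ranged from 1.07 in PIK3CA to 2.86 in FAT1, and CYP1A1 (1.94e-09) from 1.61 in CDKN2A to 3.71 in FAT1. AHNAK, a large scaffold protein (1.95e-17), went from -0.38 in NRF2 to 0.08 in PIK3CA. The keratins KRT17 (4.69e-11, -0.65 in FGFR1 to 0.22 in PIK3CA), KRT6A (6.61e-09, -0.34 in CDKN2A to 0.37 in PIK3CA) and KRT5 (2.57e-07, -0.70 in NRF2 to -0.23 in PIK3CA) all had their highest value in PIK3CA. LAMA3 (3.14e-09) went from -0.09 in CDKN2A to 0.67 in PIK3CA. SLC7A5 (8.00e-09) ranged from 0.19 in PIK3CA to 0.71 in FAT1.

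FN1, the matrix protein fibronectin (1.69e-09), went from -0.65 in the NRG1 line to 0.15 in the GFP control, and with the F statistic of limma's topTable its adjusted p was 0.343. NRG1 (3.30e-08) went from -0.31 in its own line to 3.36 in the NRF2 line, where RNA of the cells and reads carried over between pooled barcodes cannot be told apart. It had an adjusted p of 0.0753 without the 5 libraries that stood apart. The other 8 genes named here stayed past the threshold under every alternative run for this test, with the highest adjusted p at 0.0381 for SLC7A5.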

How the results depend on the processing

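Of 14090 values of the 206 named genes over all alternatives, 13476 kept direction and side of the threshold, 610 lost the call and 4 reversed. A reversal is a change of sign where at least 1 of the 2 values was called. NRG1 reversed at 0.21 in edgeR (adjusted p = 0.122, not called), 0.65 in DESeq2 (adjusted p = 0.0229) and 0.97 without the NRG1 line (limma-voom adjusted p = 2.84e-05). KRT6A, not called in the main fit, was at -0.063 without the PIK3CA line (limma-voom adjusted p = 0.04998). Thinning to the smallest library, which uses fewer reads, called 1510 genes (728 higher, 782 lower, and 327 past 1.5-fold). A mean count of at least 10, which leaves out genes with fewer reads, gave 2932 genes called. Of these 184 were past 1.5-fold, against 499 in the main fit. The GFP control fitted alone gave 210 genes; the cause was not tested. Other counts of genes called over all genotypes stayed within 1.5 times, such as 3077 in edgeR, 2946 in DESeq2, 2991 after GC and length correction and 2637 to 2838 without 1 genotype. Of the gene lists, small nucleolar RNAs went from 133 of 222 higher (median 0.67) to 24 of 177 after GC and length correction (median -0.12). When thinned, 83 of 147 were higher (median 0.74). Thinning gave 15 of 25 NRF2 targets higher instead of 23 of 27, 6 proteasome subunits higher instead of 16 and 4 replication genes lower instead of 13. Without the 5 libraries the unfolded protein response had 3 higher and 3 lower, and leaving out libraries that stood apart was chosen after seeing the data.

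Leaving out each library in turn gave 2887 to 3082 genes called, 1440 to 1559 higher, 1430 to 1561 lower, 477 to 513 past 1.5-fold and 80 to 121 varying between genotypes. Within genotypes the counts of 231 (FGFR1), 398 (CDKN2A) and 240 (HcRed), like the others, fell by over 1.5 times at the lowest, and the ranges were 65 to 102 in GFP, 180 to 204 in FAT1, 219 to 401 in CDKN2A, 126 to 206 in HcRed, 205 to 235 in NRF2, 83 to 218 in FGFR1, 301 to 391 in NRG1 and 274 to 370 in PIK3CA. The lowest came without NNK replicate 1 (GFP, HcRed, PIK3CA) or 2 (FAT1, CDKN2A) or CSC replicate 3 (NRF2, NRG1, FGFR1, where 1 CSC sample is then assumed to vary like the other groups).

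With the replicate number as a block 2881 genes were called (1424 higher, 1457 lower, 477 past 1.5-fold) and 151 varied between genotypes, and 2832 with the block and the GC and length correction. Same-numbered samples correlated weakly, and 15 of 23 CSC samples correlated best with their own number among the 3 NNK samples of their genotype. Whether the numbers pair the samples was not tested. The difference of CYP1A1 was 2.52 and of NQO1 0.95 without TMM. Depth limits calls of genes with few reads, and the floor of 3 reads covers counting error only.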

Other observations

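Further gene groups are given as values of the same comparison, limma-voom with 11.0% of all genes higher and 10.6% lower. Of 31 proteasome subunits 16 were higher with CSC and none was lower, with a median log2 fold change of 0.12 and PSMB7 of the catalytic core at 0.43 ± 0.06. Of 25 genes of glycolysis and the hypoxia response 13 were higher and 2 lower (median 0.18), among them the growth regulator NDRG1 (0.59 ± 0.05) and the peptide hormone ADM (0.71 ± 0.16) on the higher side and the aldolase ALDOC (-0.48 ± 0.10) on the lower. Of 23 genes of the ATF4 amino acid response 11 were higher and 1 lower (median 0.23), with the secreted STC2 at 0.80 ± 0.08 and the serine synthesis enzyme PHGDH at -0.26 ± 0.04. The unfolded protein response was split, with 5 of 17 higher, such as the co-chaperone DNAJB9 (0.42 ± 0.13), and 4 lower, such as the calcium-binding chaperone CALR (-0.24 ± 0.03).

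Of 14 NADPH-producing and related enzymes 4 were higher and 2 lower. Of 35 cytosolic ribosomal protein genes 8 were higher and 7 lower, and of 28 respiratory chain genes 4 were higher and 2 lower. Of 14 heme and iron genes 6 were higher and 1 lower, with the transferrin receptor TFRC at 0.56 ± 0.04 and heme oxygenase HMOX1 at 0.79 ± 0.20 on a mean of 5.26 reads. Of 11 metalloprotease and plasminogen genes 5 were higher and 1 lower, with the urokinase receptor PLAUR at 0.49 ± 0.10. Of 17 genes of TGF-beta signalling and matrix 5 were higher and 4 lower, with the integrin ITGA5 at 0.32 ± 0.05 and CTGF, a matricellular protein, at -0.83 ± 0.11.

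Some of the largest falls stood outside these lists. The phosphatase regulator PHACTR3 had -0.95 ± 0.12, the imprinted retrotransposon-derived gene PEG10 -0.70 ± 0.04 and the kinase MAPK15 -0.75 ± 0.16. PEG10 lay at 6.94 to 8.48 log2 CPM with CSC and 7.58 to 9.001 with NNK, and its groups were apart within each of the 8 genotypes, as in 27 genes (0.188%) on the lower side.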
